A study of Rattus norvegicus with 28 samples.

Results

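Described here are the genes for the receptors of glutamate, GABA and glycine in the rat spinal cord after contusion and after transplantation of neural progenitor cells. They were chosen by name alone: every gene name of the array annotation that begins with Gria, Grik, Grin, Grid or Grm and a digit, or with Gabr, Gabbr, Glra or Glrb. The rule found 52 of the 35469 features measured, of which 51 were receptor genes and 1, Grid2ip, encodes a scaffold protein and no receptor. The receptor genes comprised 4 AMPA, 5 kainate, 6 NMDA and 2 delta subunits, 8 metabotropic glutamate receptors, 19 GABA-A and 2 GABA-B subunits, and 5 glycine receptor subunits. They were read by 66 probes, each 60 bases long, on 147 spots of an array, and 12 genes had more than 1 probe. The signal of 40 of the 52 genes was well above background on all 28 arrays, and that of Gabra6, Gabrr3 and Glra4 on none.

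All samples came from adult female Sprague Dawley rats and held 1.5 cm of cord, including the injury epicentre and excluding the dura mater. The T0 group had no contusion (the labels call it sham, the study uninjured). In T1, T2, T4 and T8 the cord was taken 1, 2, 4 and 8 weeks after a 250 kdyn contusion at the T8 vertebra. T1_NPC animals received neural progenitor cells (NPCs) right after the contusion and were sampled at 1 week. In T2_NPC the cells were given 1 week after the contusion and the tissue was taken at 2 weeks. The NPCs were grown from the injured cords of other adult rats, and the dose was divided over points of injection on either side of the lesion. Since donor and host are both rat, RNA of the grafted cells was counted together with that of the host. The study lists tacrolimus (FK-506), an immunosuppressant, in the care of all animals after surgery, beginning the day before transplantation. The sources do not state how it was timed in animals without a transplant. Each group had 4 arrays, labelled as biological replicates.

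Glutamate excites neurons through cation channels of the AMPA, kainate and NMDA families, and modulates them through metabotropic receptors, which act on G proteins. GABA and glycine inhibit neurons of the cord through chloride channels, the GABA-A and glycine receptors, each assembled from several subunits, and GABA also acts through the G protein-coupled GABA-B receptor. Most of these genes are transcribed mainly in neurons, but some, such as Grm3, Grin2c, Gabra2, Gabrb1 and Gabrg1, are also known from astrocytes. These are examples, named with earlier results of these data known, and not a full list.

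Since a value on an array belongs to a probe and not to a whole gene, the probes on which the results turn are shown first. Positions are those of the array annotation on the rn4 build. Grm8 and Grm7, metabotropic receptors that curb transmitter release, were each read by 2 probes. One is annotated for the main transcript and the other for a splice form, 8b or 7b. Capitals mark the 18 bases that the Grm8 probes share. By their positions, the bases of the 8b probe after the capitals run on in the same exon as the capitals. Most of this probe is thus not particular to form 8b. The span of several probes exceeds their length because they cross introns. The Grm8 8b probe lies at chr4:53976781-53983223 on the minus strand, the main Grm8 probe at chr4:53976813-53983310 on the minus strand, the Grm7 7b probe at chr4:147206694-147206753 on the plus strand, and the main Grm7 probe at chr4:147088377-147201215 on the plus strand.
Grm8 8b: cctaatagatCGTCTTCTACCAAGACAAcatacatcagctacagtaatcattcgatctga
Grm8 main: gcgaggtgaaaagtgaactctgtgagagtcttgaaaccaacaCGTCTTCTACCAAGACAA
Grm7 7b: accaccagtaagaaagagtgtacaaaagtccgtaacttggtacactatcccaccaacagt
Grm7 main: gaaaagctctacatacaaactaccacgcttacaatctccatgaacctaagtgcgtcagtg

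Gabbr1, the subunit of the GABA-B receptor that binds GABA, is shown because its probes moved in opposite directions after injury. Its main probe lies at chr20:1554609-1554668 and the probe for the splice form 1g at chr20:1577515-1578777, both on the minus strand.
Gabbr1 main: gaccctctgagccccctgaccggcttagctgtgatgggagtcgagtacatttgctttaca
Gabbr1 1g: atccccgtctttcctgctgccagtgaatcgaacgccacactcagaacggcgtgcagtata

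Probes for alpha subunits of the GABA-A receptor are shown because Gabra3 passed as lower at all 4 time points after injury and Gabra2 only at T1. The Gabra2 probe lies at chr14:39661796-39662852 on the plus strand, and the Gabra3 probe at chrX:158416663-158422492 on the minus strand. Gabrr2, the only receptor gene that rose at all time points, has its probe at chr5:49386942-49387001 on the plus strand, and Grin2d, the receptor gene with the largest spread between replicates, at chr1:96309502-96309561 on the minus strand. The Grin2d probe has a GC content of 81.7%, the highest of the 66 probes, of which the next has 60.0% and the median 45.0%.
Gabra2: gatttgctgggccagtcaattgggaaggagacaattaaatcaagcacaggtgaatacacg
Gabra3: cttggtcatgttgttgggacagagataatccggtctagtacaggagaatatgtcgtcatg
Gabrr2: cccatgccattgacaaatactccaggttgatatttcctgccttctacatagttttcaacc
Grin2d: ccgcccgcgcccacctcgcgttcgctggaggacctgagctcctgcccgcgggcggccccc

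The arrays had 74.5% to 82.7% of spots well above background and no saturated spot. For 16 of the 28 arrays, the scanner output and the column of the value table deposited for the same sample are not of the same array, so that their labels conflict. The values below follow the value table. Undisputed were 2 arrays of T0, 1 of T1, 2 of T2, 1 of T4, 2 of T8, none of T1_NPC and 4 of T2_NPC, and results on these 12 arrays are given beside the main ones. The undisputed arrays of the time course are the same arrays as those of its first scan session. Results on undisputed arrays and within the first session are therefore not separate checks of a change after injury. In T0, the log2 of the summed signal was 18.72 to 19.13 for the neuron markers, 16.16 to 16.43 for the astrocyte markers and 18.60 to 18.90 for the oligodendrocyte markers. After injury all 11 neuron markers fell (median change -1.52 on the log2 scale), 7 of 8 oligodendrocyte markers fell (median -0.80), 8 of 8 microglia and macrophage markers rose (median 2.40) and 5 of 5 Schwann cell markers rose (median 4.15), while the 8 astrocyte markers had a median of -0.02. The summed neuron marker signal lay between 16.88 and 17.84 on the 16 injured arrays. The part of these changes in cell makeup in the receptor results was not tested.

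The receptor genes fell after contusion as a group, from the first week on. Against T0, 37 genes passed as lower in the first week (25.1% of all features), 37 after 2 weeks (22.2%), 34 after 4 weeks (21.0%) and 35 after 8 weeks (21.5%), with an adjusted p under 0.05 in limma. At each of these times 1 gene, Gabrr2, passed as higher (19.1%, 17.7%, 17.5% and 18.2% of all features). In the mean of the 4 injured groups, 39 of 52 genes fell (26.8% of all features) and 1 rose (21.1% of all features). The median gene changed by -1.18 on the log2 scale, against -0.06 over all features. At all 4 time points 33 genes were lower (15.9% of all features), and 29 genes had all 16 injured arrays below all 4 T0 arrays (14.3% of all features). Since tissue was measured, fewer cells of a type and less RNA per cell cannot be told apart. The time points share the same T0 arrays and are therefore not independent of each other. In the 12 undisputed arrays, 33 genes were lower (24.1% of all features) and 2 higher (19.6%) in the injured mean, and 33 of the 40 genes called with all arrays were called again. With the scanner outputs under the samples they were deposited for, no receptor gene passed in the injured mean (median change -0.48), and of all 35469 features 1 did. Within the first scan session of the time course, 29 genes were lower (22.7% of all features) and 1 higher (18.3%) in the injured mean, and within the second 40 were lower (25.0%) and none higher (19.5%).

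**Figure D1:**
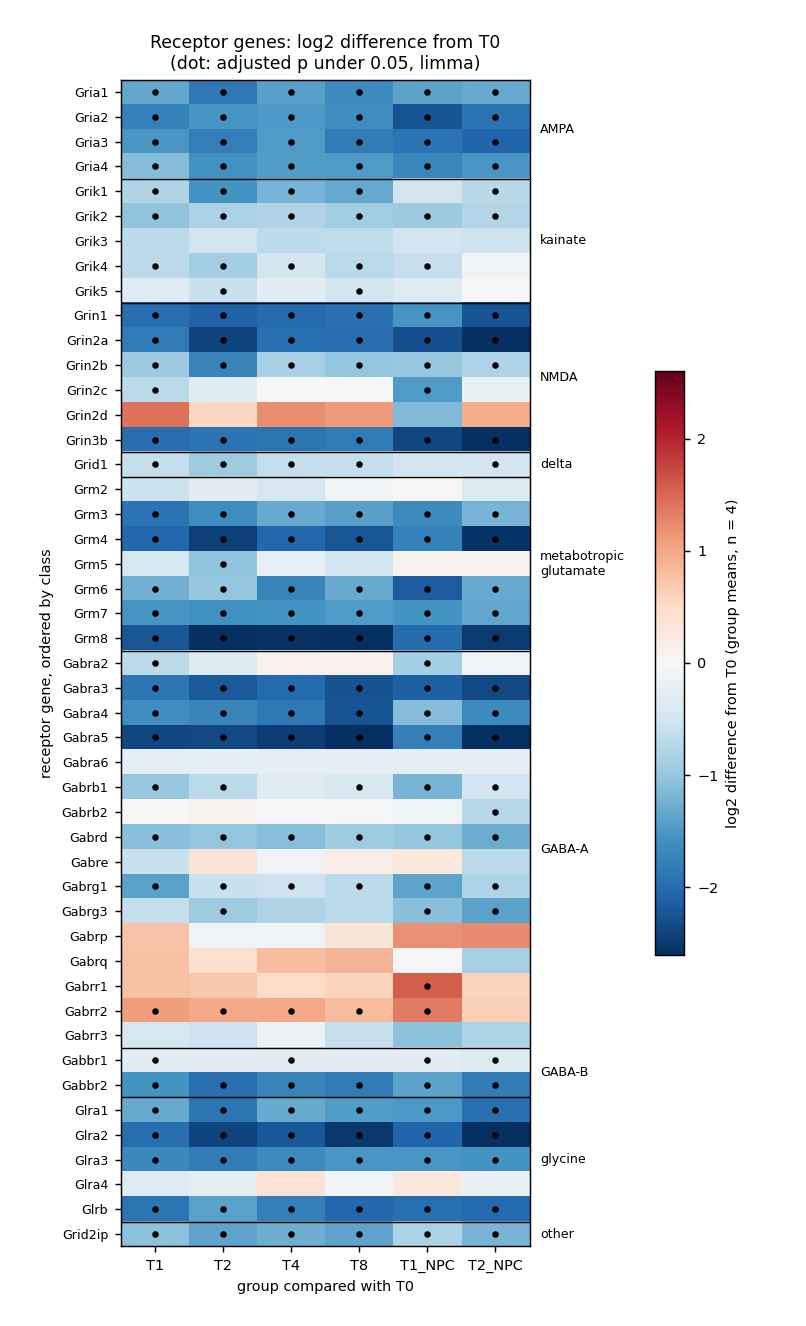
Change in each receptor gene against T0 (47 of the 52 as rows, by class) for T1, T2, T4, T8, T1_NPC and T2_NPC (columns), as colour on the log2 scale. Most rows are lower in every column, with 28 of the plotted genes called lower at all 4 time points, while Gabrr2 is higher at T1, T2, T4 and T8.

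AMPA receptor subunits form the channel of most fast excitatory synapses. In the injured mean 4 of 4 fell (26.8% of all features), with a median of -1.58. Gria3 read 12.35, 12.09, 12.04 and 12.11 on the T0 arrays (log2 signal), and 9.88 to 11.03 with a median of 10.38 on the 16 injured arrays. No injured array reached the T0 range, and the fall was -1.65 (SE 0.16, adjusted p = 1.50e-08, limma). Gria2, the subunit that makes the channel impermeable to calcium, read 10.72, 11.03, 10.79 and 10.86 in T0 and 8.72 to 9.65 (median 9.25) after injury. It changed by -1.60 (SE 0.14, adjusted p = 1.64e-09, limma), and here too the groups did not overlap. Gria1 read 8.97, 9.55, 9.17 and 9.50 in T0 and 6.97 to 8.38 (median 7.78) after injury, a change of -1.57. For Gria4 the T0 arrays read 8.36, 8.07, 8.61 and 8.00 and the injured arrays 6.45 to 7.80 (median 6.78), a change of -1.41. The difference between Gria2 and the mean of Gria1, Gria3 and Gria4 within an array was 0.95 in T0 and 0.89 after injury, a difference of -0.06 (exact permutation test, two-sided, p = 0.730, adjusted over 7 pairs 0.851). The time points differed in this, with 0.18 to 0.78 (mean 0.51) at T1, below the T0 range of 0.82 to 1.13, and a mean of 1.15 at T2. At T1 the subunits changed by -1.77 (Gria2), -1.52 (Gria3), -1.35 (Gria1) and -1.13 (Gria4).

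Kainate receptor subunits, which act both at synapses and on transmitter release, fell by less, with a median of -0.68. Grik1 read 7.58, 7.89, 7.17 and 7.65 in T0 and 5.64 to 6.91 (median 6.39) after injury, without overlap (change -1.22, SE 0.18, adjusted p = 5.89e-06, limma). Grik2 changed by -0.88 and Grik4 by -0.68, and these 3 genes were lower at all 4 time points. Grik5 changed by -0.42 and was called at 2 of 4 time points. Its call in the injured mean ended without T0 replicate 2 (-0.31, adjusted p = 0.101) or T0 replicate 4 (-0.25, adjusted p = 0.145). Grik3 was called at no single time point but passed in the injured mean (-0.62, adjusted p = 0.0290). Its T0 arrays read 4.48, 5.12, 6.83 and 4.87, and without T0 replicate 3 the change was -0.12 (adjusted p = 0.505), so that the Grik3 call rests on that array.

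NMDA receptors need the obligate subunit Grin1 together with Grin2 or Grin3 subunits, which set their kinetics. Grin1 read 12.36, 11.90, 12.36 and 12.18 in T0 and 9.19 to 11.10 (median 10.23) after injury. The fall of Grin1 was -2.01 (SE 0.32, adjusted p = 1.09e-05, limma), and no injured array overlapped T0. Grin2a, typical of mature synapses, read 8.69, 8.89, 8.40 and 8.61 in T0 and 5.02 to 7.40 (median 6.62) after injury, a fall of -2.05 (SE 0.29, adjusted p = 2.47e-06). Grin3b, a subunit found in motor neurons, changed by -1.91 (SE 0.25). Grin2b, which predominates in the immature nervous system, was dimmer, at 5.13, 5.95, 4.89 and 6.31 in T0 and 3.20 to 5.20 (median 4.53) after injury. It changed by -1.13 (SE 0.23, adjusted p = 0.000216), with overlap between the groups. Grin2b was well above background on 14 of 16 injured arrays, and on 2 of 4 at T2. Where it was not, the size of its fall is not measured, and the difference to Grin2a given next shares this limit. The difference between Grin2a and Grin2b within an array narrowed from 3.07 to 2.16, by -0.92 (exact permutation test, two-sided, p = 0.0109, adjusted 0.0153). This call ended without T0 replicate 1 (-0.76, adjusted p = 0.0795) or T0 replicate 3 (-0.77, adjusted p = 0.0737).

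The remaining NMDA subunits behaved differently. Grin2c was lower at T1 only (-0.70, adjusted p = 0.0219), and its change in the injured mean was -0.24 (adjusted p = 0.327). The T1 call of Grin2c ended in 3 of 8 cases when an array was left out, without T0 replicate 2 (-0.66), T1 replicate 2 (-0.61) or T1 replicate 4 (-0.64). Grin2d read 11.21, 13.41, 11.99 and 14.02 in T0 and 12.21 to 14.93 (median 14.08) after injury, and its change of 1.07 did not pass (SE 0.50, adjusted p = 0.0811). Its mean SD within groups, 0.903 on the log2 scale, was the largest of the 52 genes, whose median was 0.348. The spread of Grin2d went with the scan session, and in each of the 5 groups of the time course the arrays of the first session were below those of the second. In T0 the first session read 11.21 and 11.99 and the second 13.41 and 14.02. At T4 the only array of the first session read 12.22 and the other 3 read 14.31 to 14.50. With the session as a fixed block the change of Grin2d was 0.86 and passed (adjusted p = 0.0137, limma), while within the first session it was 1.10 (adjusted p = 0.117) and within the second 0.58 (adjusted p = 0.130).

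Grid1, a delta receptor related to the AMPA family that organises synapses, and the scaffold gene Grid2ip fell at all 4 time points. Grid1 read 7.67, 7.51, 7.34 and 7.53 in T0 and 6.15 to 7.28 (median 6.83) after injury, without overlap (change -0.69, SE 0.16, adjusted p = 0.000773, limma). Grid2ip changed by -1.27.

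Metabotropic glutamate receptors fell in 7 of 8 cases (26.8% of all features), with a median of -1.55. The largest fall of all 52 genes was that of Grm8, which curbs release from presynaptic endings. It read 8.24, 8.11, 7.78 and 7.98 in T0 and 3.73 to 6.68 (median 5.69) after injury, a fall of -2.55 (SE 0.41, adjusted p = 1.22e-05, limma). Although the injured arrays were spread over almost 3 log2 units, all were below T0. The main and the 8b probe shown above fell by -2.54 and -2.57 when fitted singly, and the main and 7b probes of Grm7 by -1.53 and -1.55. The probes of each gene thus moved alike. Since most of the 8b probe is not particular to 8b, the Grm8 probes do not tell the forms apart. Whether the splice forms of either gene moved alike was not tested. Among the other presynaptic members, Grm4 changed by -2.18 (SE 0.28). Grm6 changed by -1.32 but was well above background on only 8 arrays, 4 of them T0 and none T4. At T4 it was at least 1.09-fold lower (adjusted p = 0.000256, limma), a bound set by the dimmest signal called above background.

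Grm5, a group I receptor, which raises excitability, changed by -0.55 (adjusted p = 0.0262). It was called at 1 of 4 time points, and its call in the injured mean ended without T0 replicate 1 (-0.52, adjusted p = 0.0740), T0 replicate 2 (-0.49, adjusted p = 0.0847) or T0 replicate 4 (-0.42, adjusted p = 0.128). Grm5 read 5.60, 5.68, 4.88 and 5.89 in T0 and 3.76 to 5.81 (median 5.00) after injury, with overlap. Grm3, a group II receptor present in neurons and astrocytes, read 11.55, 11.48, 11.65 and 11.26 in T0 and 9.35 to 10.39 (median 9.97) after injury. Its groups were fully separated, with a change of -1.56 (SE 0.13, adjusted p = 4.95e-10). Within an array the difference of Grm5 to Grm3 shifted by 1.01 towards Grm5 (exact permutation test, two-sided, p = 0.00289, adjusted 0.00506). Grm2, the other group II receptor, was called at no time point and changed by -0.35 (adjusted p = 0.142, limma). In all 5 groups of the time course its arrays of the first session were above those of the second, as were those of Gria4. In the undisputed arrays, all of the first session in the time course, Grm2 changed by -0.34 in the injured mean and passed as lower.

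**Figure D2:**
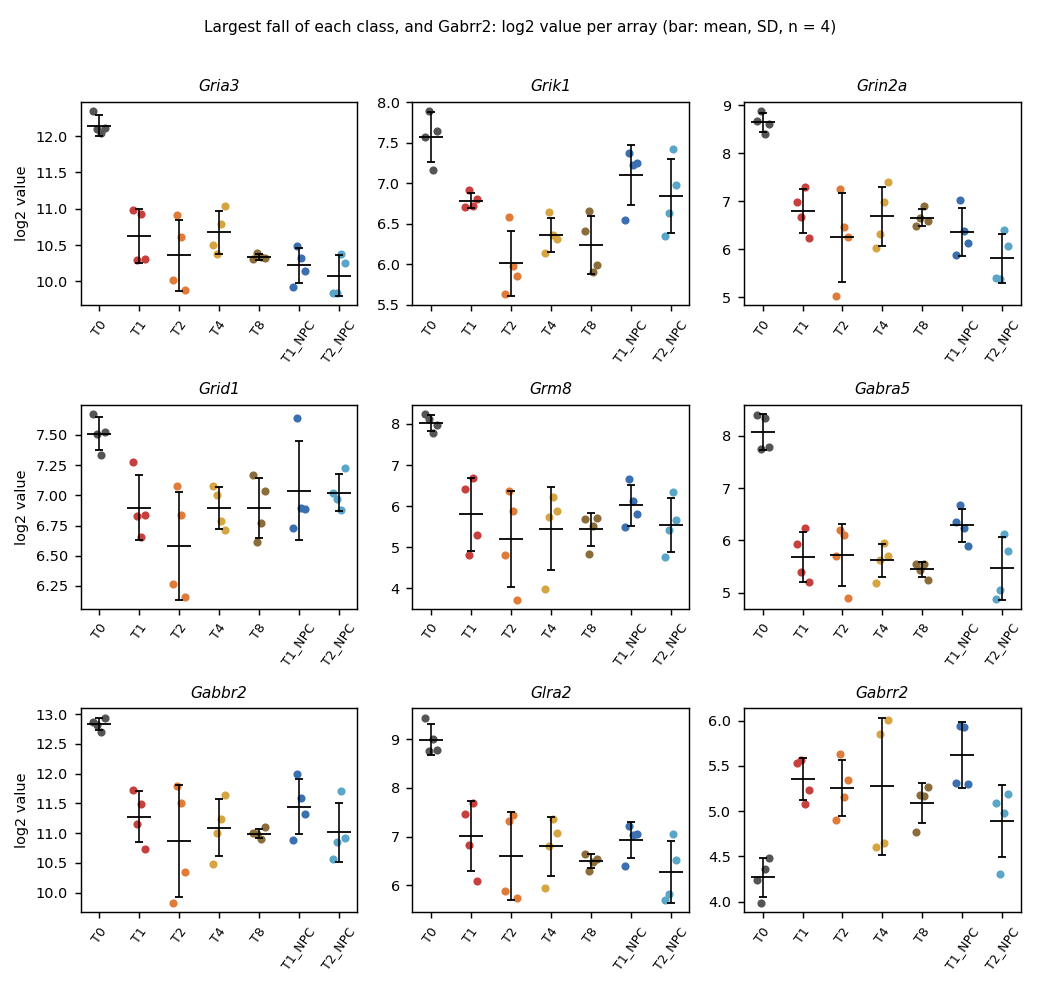
Log2 signal on each array (points) and mean ± SD of each group (4 arrays) for the gene with the largest fall in each receptor class and for Gabrr2, in the 7 groups. The T0 arrays lie above all 16 injured arrays in every panel except that of Gabrr2, whose T0 arrays read 3.98 to 4.48 and whose injured arrays read 4.60 to 6.01.

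GABA-A receptor subunits were the most divided class, with 10 of 19 lower (26.8% of all features), 1 higher (21.1%) and a median of -0.60. Gabra5, a subunit of receptors outside synapses, read 8.40, 7.75, 8.33 and 7.79 in T0 and 4.89 to 6.24 (median 5.59) after injury. It fell by -2.45 (SE 0.23, adjusted p = 6.41e-09, limma), and the groups were more than 1 log2 unit apart. Gabra3 changed by -2.09, from 7.81, 7.66, 7.79 and 7.63 in T0 to 5.18 to 6.77 (median 5.53). Gabra4 (-1.87) and Gabrd (-1.03) also fell. Gabra4 was well above background on all 4 T0 arrays but on only 1 of 4 at T8. Gabrg3 changed by -0.76 and was called at 1 of 4 time points, and without T0 replicate 3 its change in the injured mean was -0.46 (adjusted p = 0.180).

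Alpha subunits did not move together. Gabra2, typical of synapses on the axon initial segment and also known from astrocytes, read 9.63, 9.07, 8.86 and 8.92 in T0 and 8.23 to 9.59 (median 9.01) after injury. It passed as lower at T1 only (-0.68, adjusted p = 0.00523, limma). Its change in the injured mean was -0.20 (SE 0.15, adjusted p = 0.288, limma). Gabra3, Gabra4 and Gabra5, by contrast, had passed as lower at all 4 time points.

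Gabrr2, a rho subunit that forms GABA channels of its own, was the only receptor gene that rose at all 4 time points (12.3% of all features did). It read 4.24, 3.98, 4.36 and 4.48 in T0, where it was well above background on 2 of 4 arrays, and 4.60 to 6.01 (median 5.21) after injury. All 16 injured arrays were above T0 (11.2% of all features), and the change was 0.98 (SE 0.22, adjusted p = 0.000552, limma). The other rho gene with any signal, Gabrr1, was well above background on 3 arrays in all and did not pass (adjusted p = 0.0976). In the 12 undisputed arrays Gabrr2 changed by 1.24 (adjusted p = 0.00462). Gabrr1 passed there too, but since no T0 array and 1 of 16 injured arrays read it well above background, no change is given. Within the first scan session Gabrr2 changed by 1.24 (adjusted p = 0.00566) and within the second by 0.87, which did not pass (adjusted p = 0.0518). Gabrq, the theta subunit, changed by 0.72 (adjusted p = 0.0613). Its arrays were split by session as those of Grin2d were, and with the session as a block its change was 0.59 and passed (adjusted p = 0.00929), while it passed within neither session (0.72 and 0.45, adjusted p = 0.0925 and 0.282). Gabrb2 changed by 0.01 (adjusted p = 0.982). Gabrp, well above background on 2 arrays, and Gabre, on 16, did not pass either, and the probes of Gabre pointed in opposite directions without passing (-0.96 and 0.88).

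GABA-A genes lie in clusters in the genome, and members of a cluster did not always share a response. On chromosome 14 (rn4 38530433 to 39951158, 1.42 Mb), Gabra4 changed by -1.87, Gabrg1 by -0.80 and Gabrb1 by -0.60, while Gabra2 was not called in the injured mean. On chromosome X (158353316 to 158855948, 0.503 Mb), Gabra3 fell, whereas Gabrq and the dim Gabre did not pass.

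The GABA-B receptor needs both of its subunits, and these changed unequally. Gabbr2, which couples the receptor to its G protein, read 12.87, 12.81, 12.70 and 12.94 in T0 and 9.83 to 11.79 (median 11.05) after injury, a fall of -1.77 (SE 0.27, adjusted p = 6.83e-06, limma). Gabbr1 read 9.24, 9.08, 9.31 and 9.26 in T0 and 8.71 to 9.13 (median 8.95) after injury, a change of only -0.28 (adjusted p = 0.0121). The call of Gabbr1 ended without T0 replicate 3 (-0.25, adjusted p = 0.0524). The difference of Gabbr1 to Gabbr2 within an array moved by 1.49, with no overlap between T0 and injured arrays (exact permutation test, two-sided, p = 0.000206, the smallest that the 4845 splits of 20 arrays allow, adjusted 0.00144). The value of Gabbr1 averages probes of opposite direction. Its main probe fell by -0.86 (SE 0.12, adjusted p = 3.34e-06), the probe for form 1d fell by -0.45 (adjusted p = 0.00528), and the probe for form 1g rose by 0.47 (SE 0.13, adjusted p = 0.00450). With the brightest probe alone, the difference of Gabbr1 to Gabbr2 moved by 0.91 and passed as well.

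Glycine receptors carry much of the fast inhibition of the cord. Of 5 subunits, 4 fell (26.8% of all features), with a median of -1.67. Glra2, the fetal form of the alpha subunit, read 9.44, 8.76, 9.00 and 8.78 in T0 and 5.74 to 7.70 (median 6.73) after injury. It fell by -2.27 (SE 0.31, adjusted p = 1.81e-06, limma), without overlap. Glra1, the adult form, read 9.02, 8.89, 8.70 and 9.14 in T0 and 6.21 to 8.02 (median 7.56) after injury, a fall of -1.50 (SE 0.25, adjusted p = 2.08e-05). Within an array, Glra1 fell by less than Glra2, by 0.77 (exact permutation test, two-sided, p = 0.00289, adjusted 0.00506). Glrb, which ties the receptor to its scaffold, changed by -1.78 and Glra3 by -1.67. The remaining subunit, Glra4, was not above background on any array.

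Genes of the receptor scaffolds and partners moved largely in the same direction. Of 25 auxiliary subunits and scaffolds of excitatory synapses, 22 fell (26.8% of all features) and 1 rose (21.1%) in the injured mean (median -0.83). The largest falls were those of Cacng2 (-2.10), an auxiliary AMPA subunit, and Neto1 (-1.44), an auxiliary kainate subunit, and Homer3, a scaffold of group I metabotropic receptors, rose by 1.12. Of 10 inhibitory scaffolds and partners, 7 fell (26.8% of all features) and 2 rose (21.1%), with a median of -0.72. Slc12a5, the chloride exporter that makes GABA and glycine inhibitory, fell by -1.96, and Kctd8, an auxiliary GABA-B subunit, by -1.57. Its relative Kctd12 rose by 1.43, and Gabarap, which is also part of autophagy, by 0.71.

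Set against the mean of the 11 neuron markers on the same array, the genes separated further. The marker mean itself changed by -1.59, from at most 14.38 in T0 to between 11.99 and 13.07 after injury. Relative to it, 8 genes fell by more (1.10% of all features did), among them Grm8 (-0.96), Gabra5 (-0.85), Glra2 (-0.67), Grm4 (-0.59), Gabra3 (-0.49) and Grin2a (-0.45). Another 25 fell by less or rose, against 89.6% of all features, and the remaining 19 did not differ from the marker mean by a margin that passed, Grin1 and the 4 AMPA subunits among them. Without T0 replicate 1 only 4 genes fell by more.

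**Figure D3:**
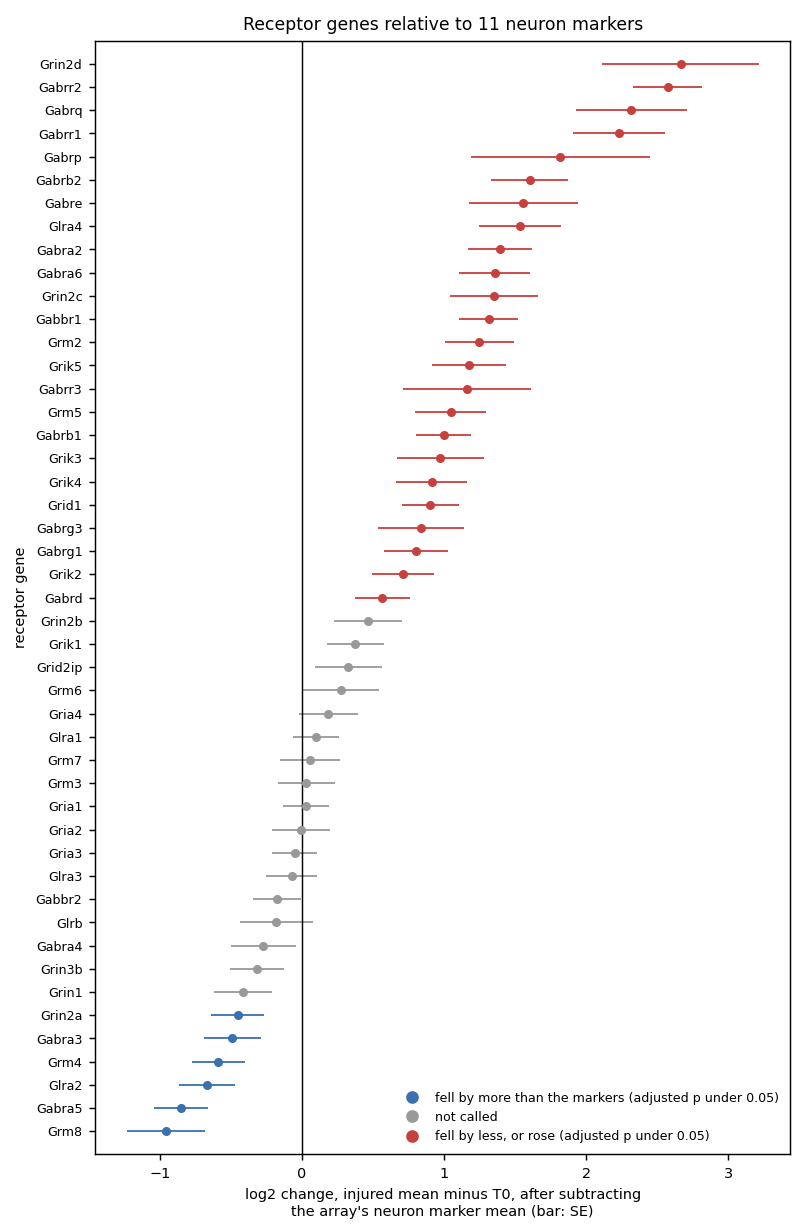
Change of 47 of the 52 genes in the injured mean against T0 (log2, horizontal axis) after the mean of the 11 neuron markers on the same array was subtracted, as points with standard errors, where 0 is a change equal to that of the marker mean. The 6 plotted genes that fell by more than the markers, from Grm8 at -0.96 to Grin2a at -0.45, lie left of 0 in blue, the 24 that fell by less or rose lie right of 0 in red, and the 17 not called are grey.

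From T1 to T2, T2 to T4 and T4 to T8 no receptor gene passed in limma (1.48%, 0.0761% and 0.0902% of all features), while 8, 6 and 0 had an unadjusted p under 0.05. Between T1 and T8, 4 genes rose (5.45% of all features) and none fell (4.42%). These were Gabra2, Gabrb1, Gabrg1 and Grm3. Grin2c did not pass (0.74, adjusted p = 0.0575, limma). With the session as a fixed block it did (adjusted p = 0.0464, limma). The examples from astrocytes given above were named with these results known, so that their match with the genes here is not a test. Gabrb1 read 10.86, 10.43, 10.74 and 10.58 at T1 and 11.14, 11.42, 11.38 and 11.06 at T8, without overlap (difference 0.59, SE 0.14, adjusted p = 0.00658, limma). For Gabra2 the T1 arrays read 8.91, 8.23, 8.24 and 8.40 and the T8 arrays 9.10, 9.59, 8.88 and 9.38, which overlapped (0.79, SE 0.19, adjusted p = 0.00740). Gabrg1 differed by 0.71 (adjusted p = 0.0335) and Grm3 by 0.52 (adjusted p = 0.0404).

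At T1 these genes were below T0, by -0.68 for Gabra2, -0.99 for Gabrb1, -1.39 for Gabrg1 and -1.93 for Grm3. At T8, Gabra2 differed from T0 by 0.11 (adjusted p = 0.704), whereas Grm3 was still lower by -1.41. The astrocyte markers moved in the same direction, with 5 of 8 higher at T8 than at T1 (median 0.72) and the log2 of their summed signal at 15.89 to 16.20 at T1 and 16.59 to 16.88 at T8. Of the Schwann cell markers 4 of 5 were higher at T8, and of the 11 neuron markers none passed (median -0.27). Their part in the rise was not tested. The calls of Gabra2 and Gabrb1 held without any single array of T1 or T8. That of Gabrg1 ended without T1 replicate 2, T1 replicate 4, T8 replicate 2 or T8 replicate 3 (0.57, 0.67, 0.52 and 0.66). Grm3 lost its call without T1 replicate 2 or 4 or T8 replicate 1, 2 or 4 (0.47, 0.45, 0.55, 0.41 and 0.48). In the undisputed arrays, with a single T1 array, the differences were 0.57 for Gabra2, 0.38 for Gabrb1, 0.69 for Gabrg1 and 0.56 for Grm3. Gria4, which is not among these genes, differed there by -0.95. With 1 array in T1, no call is drawn from these differences.

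**Figure D4:**
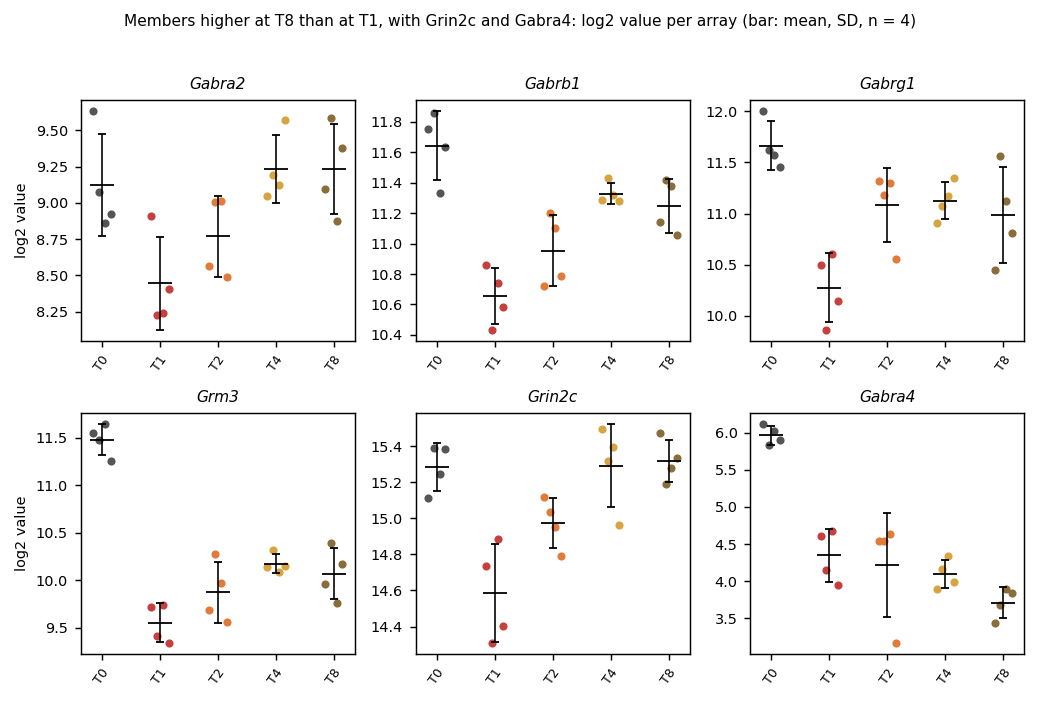
Log2 signal on each array (points) and mean ± SD of each group (4 arrays) in T0, T1, T2, T4 and T8 for Gabra2, Gabrb1, Gabrg1, Grm3, Grin2c and Gabra4. The first 4 genes are lowest at T1 and higher at T8, while Gabra4 stays below T0, at 3.44 to 3.89 at T8 against 5.83 to 6.12 in T0.

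For the transplantation of NPCs, each transplanted group was compared with the injured group of the same week. The study states that injured controls received an injection of medium without cells, equal in volume. Both transplanted groups lay on slides of their own in a scan session of their own, so that slide and session and transplantation cannot be told apart. Against T0, 36 genes were lower in T1_NPC (29.9% of all features) and 36 in T2_NPC (26.5%). In T1_NPC, 2 were higher (22.8% of all features), Gabrr2 by 1.35 and the dim Gabrr1, and in T2_NPC none was (21.2%). Gabrr1 was not well above background in T0 and was so on 2 of 4 T1_NPC arrays, and the fold by which it was higher was at least 1.12.

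For NPCs given right after injury and 1 week later, the difference between the effects passed for no gene in limma (0.299% of all features; 10 genes had an unadjusted p under 0.05). In T2_NPC against T2, 6 genes were higher and 2 lower (4.62% and 4.85% of all features). Grik4, a kainate subunit of high affinity, read 9.59, 9.96, 9.31 and 9.40 at T2 and 10.46, 10.19, 10.34 and 10.40 in T2_NPC, without overlap (0.78, SE 0.16, adjusted p = 0.00368, limma). Grm5, with 3.76, 4.82, 4.70 and 4.61 at T2 and 5.13, 5.73, 5.85 and 5.63 in T2_NPC, was higher by 1.12 (SE 0.25, adjusted p = 0.00720). The T2_NPC arrays of both genes lay within the T0 ranges of 10.11 to 10.78 and 4.88 to 5.89.

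Grik5, a further subunit of high affinity, was higher by 0.59 (9.13, 9.23, 8.98 and 9.26 at T2; 9.58, 9.88, 9.62 and 9.87 in T2_NPC; adjusted p = 0.0355, limma). Grik1 was higher by 0.83 (adjusted p = 0.0265), with overlapping groups. Grin2b, at 3.20, 4.17, 4.04 and 3.92 at T2 and 4.23, 4.93, 4.87 and 5.01 in T2_NPC, was higher by 0.93 (adjusted p = 0.0442). It was well above background on only 2 of 4 T2 arrays. Among the scaffolds, Cnih2 (0.64), Dlg3 (0.70), Homer2 (0.39) and Dlgap1 (0.69) of the excitatory list and Gphn (0.80), the scaffold of glycine and GABA-A receptors, were also higher, and Shank1 was lower (-1.04).

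The GABA-A subunits Gabrb2 and Gabrq were lower in T2_NPC than in T2. Gabrb2 read 5.36, 5.18, 4.66 and 5.52 at T2 and 4.23, 4.51, 4.35 and 4.31 in T2_NPC, without overlap (-0.83, adjusted p = 0.00877, limma). Gabrq read 12.60, 12.11, 11.84 and 13.20 at T2 and 10.73, 11.40, 11.35 and 11.07 in T2_NPC (-1.30, adjusted p = 0.0401). Neither gene had been called after injury, other than Gabrq with the session as a block. None of the 11 neuron markers passed in this comparison (median -0.02), while Mbp and Mobp, 2 of 8 oligodendrocyte markers, and Sox2, 1 of 6 progenitor markers, were higher. Their part was not tested.

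The calls of Grik4, Grm5 and Gabrb2 held without any single array of T2 or T2_NPC. Leaving out 1 array ended the call in 5 of 8 cases for Grik1, in 6 for Grik5 and Grin2b, and in 7 for Gabrq. The change without that array ranged from 0.64 to 0.82 for Grik1 (T2 replicates 1, 3 and 4, T2_NPC replicates 3 and 4). It ranged from 0.53 to 0.63 for Grik5 (T2 replicates 1, 2 and 3, T2_NPC replicates 2, 3 and 4), and from 0.72 to 1.00 for Grin2b (T2 replicates 1, 3 and 4, T2_NPC replicates 2, 3 and 4). For Gabrq it ranged from -1.41 to -1.04, and only leaving out T2 replicate 3 kept the call. With the 2 undisputed T2 arrays, Grik4 (0.71, adjusted p = 0.0271) and Grik5 (0.63, adjusted p = 0.0135) passed again, the other 6 genes kept their direction without passing, and Glrb, Gria3, Grin1, Grin3b and Grm2 passed as lower.

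NPCs given right after the contusion went with 2 lower genes, both NMDA subunits, (6.46% of all features), and no higher gene (5.45%) in T1_NPC against T1. Grin2d read 12.99, 14.63, 14.01 and 14.66 at T1 and 10.78, 11.21, 11.79 and 12.27 in T1_NPC, without overlap (-2.56, SE 0.63, adjusted p = 0.00994, limma). The T1_NPC arrays lay within or below the T0 range of 11.21 to 14.02, and Grin2d is the gene with the largest spread and the probe richest in G and C. The Grin2d call held without any single array, but leaving out an array cannot separate the scan session, which T1_NPC did not share with T1. Within T0, Grin2d read 11.21 to 11.99 in the first session and 13.41 to 14.02 in the second. Grin2c read 14.73, 14.31, 14.89 and 14.40 at T1 and 13.80, 12.67, 14.20 and 14.55 in T1_NPC, with overlap (-0.78, adjusted p = 0.0389). Without T1_NPC replicate 2 it was -0.40 (adjusted p = 0.137), and the call also ended without T1 replicate 1 (-0.73), T1 replicate 3 (-0.68), T1 replicate 4 (-0.84) or T1_NPC replicate 1 (-0.78). No neuron or astrocyte marker passed in this comparison. All 4 T1_NPC arrays are among those whose labels conflict, so that no value without them exists.

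**Figure D5:**
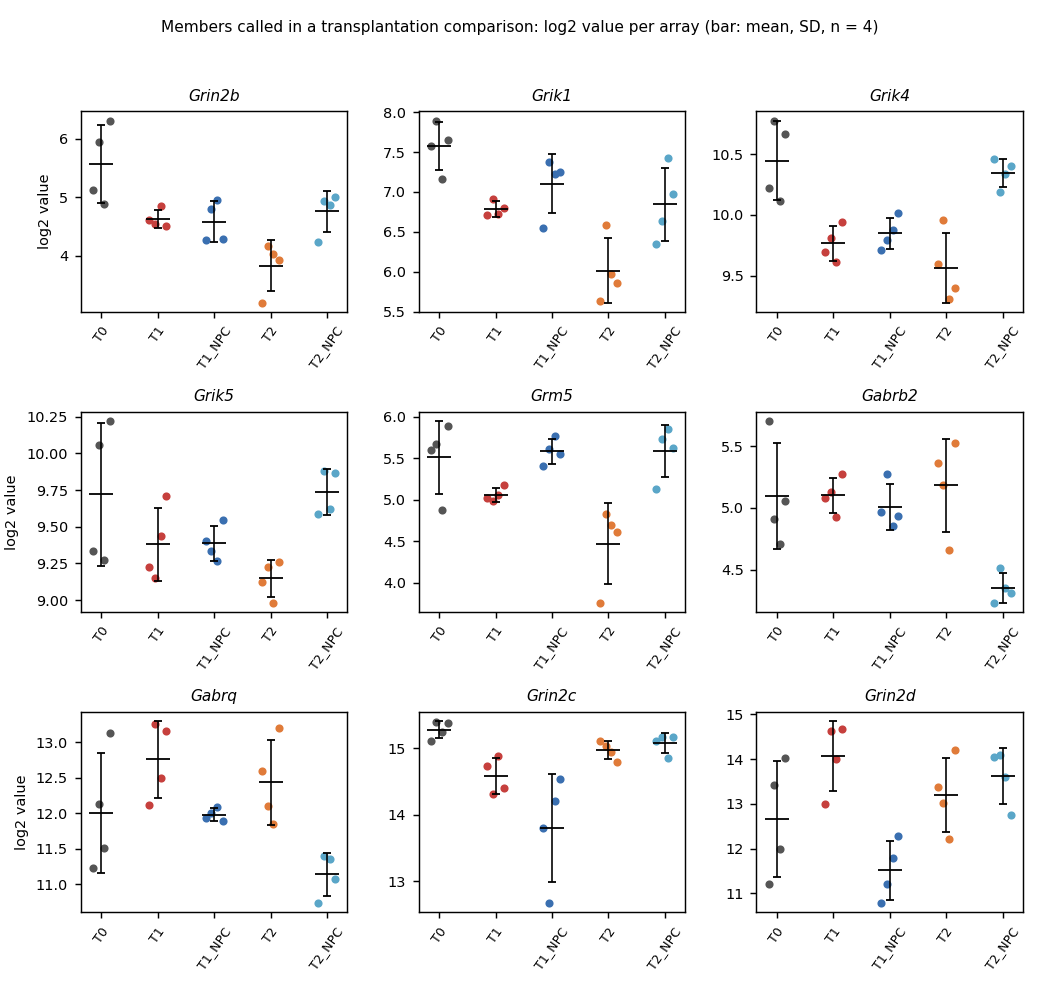
Log2 signal on each array (points) and mean ± SD (4 arrays) in T0, T1, T1_NPC, T2 and T2_NPC for 9 of the 10 receptor genes called in a transplantation comparison. Grik4, Grm5, Grik5 and Grin2b are higher in every T2_NPC array than in any T2 array, and Grin2d is lower in every T1_NPC array than in any T1 array.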

How the data were processed

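The array was the Agilent Whole Rat Genome 4x44K design with a single dye, Cy3. Per the submitters' processing notes, Agilent Feature Extraction read the spots, and the authors deposited its output, intensity values of single spots, background-subtracted and detrended, with no normalization across arrays. All values reported come from a table of log2 values that the authors deposited after quantile normalization. Control spots were left out, the 43379 other spots were averaged to 41012 probes and these to 35469 features by gene name, without a filter on dim probes. Gene names came from the scanner outputs that carry them, and all 52 symbols were found in the RefSeq gene table. Probe positions are those of the array annotation (rn4).

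The rank order of each scanner output matched a column of the value table exactly (rho 1, next best at most 0.993), but for 16 arrays the column of another sample (rho with its own 0.948 to 0.992). Flags for background, slide and scan session were taken through that match. The time course lay on 5 slides in 2 sessions.

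Group means were estimated from all 28 arrays by limma (version 3.58.1, under R 4.3.3), with empirical Bayes moderation (2.26 prior degrees of freedom) and Benjamini-Hochberg adjustment over all features. A gene was called at an adjusted p under 0.05. The injured mean is the average of T1, T2, T4 and T8. Differences between genes within an array were compared between 4 T0 and 16 injured arrays by exact permutation tests, two-sided, adjusted over the 7 pairs that could be formed (Python 3.11.15, scipy 1.17.1). The planned pair with Grin3a was not analysed here, and of these 7 pairs 5 are reported. The script was tested on simulated data.

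Genes were named by a rule: the 3 largest falls of each class among genes called lower at all 4 time points and well above background in T0, genes called higher, genes called at no time point although well above background on every array, genes called between time points or with transplantation, and the genes of the pairs. Genes outside these parts are given to account for the members, of which 5 enter the counts but are not reported singly here. The members and lists were chosen with earlier results of these data known. Alternatives covered the source and scaling of the values, background correction (normexp, offset 50, on the median signal, since the mean signal was not in all scanner outputs), probes, filters, slide, session, replicate number, samples in the fit, a change of 2-fold, and single arrays left out. The number of arrays limits the precision.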

Additional observations from a re-analysis of the deposited data

Results flagged for a closer look

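Of 196 groups of 4 arrays examined over 28 receptor genes, 4 held an array that stood apart from the other 3 by more than Dixon's 95% critical value for 4 values, where chance flags about 1 in 20. For Grin2d, T4 replicate 4 read 12.22 on the log2 scale and the others 14.31 to 14.50. This array is the only one of T4 from the first scan session, and the first session read lower for Grin2d in all 5 groups of the time course. For Gabra3, T1 replicate 3 read 6.77 and the others 5.44 to 5.66. Grm3 read 10.56 on T2_NPC replicate 3 and 10.16 to 10.18 on the others. Gabbr1 read 8.69 on T2_NPC replicate 4 and 8.90 to 8.95 on the others.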

How the results depend on the processing

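Total receptor genes called are given. With the scanner outputs under the samples they were deposited for, none was called for T1, T2, T4, T8 or the injured mean against T0 (0 each, against 38, 38, 35, 36 and 40), nor for T8 against T1, T1_NPC against T1, T2_NPC against T2 or T1_NPC against T0 (0 each), and 1 was for T2_NPC against T0. Of the single genes, Grin2c and Grin2d in T1_NPC against T1 (0.44 and 1.21) and Grin2c in T1 against T0 (0.17) then turned direction. The 12 undisputed arrays gave 23 at T1, 23 at T4 and 1 for T8 against T1. Session 1 alone gave 25 at T1 and 0 for T8 against T1, and session 2 alone 1 for T4 against T2. T2 against T1 had 1 gene in place of 0 with normexp, without dim probes, with trend and robust moderation, with the slide as a random block and with the session as a fixed block. T8 against T1 had 2 with the slide as a fixed block, 2 with only the compared groups and 0 at a change of 2-fold. T1_NPC against T1 had 8 with 75th percentile scaling (6 higher, 2 lower), 4 with single probes, and 1 each with the slide as a random block, with only the compared groups and at 2-fold. T2_NPC against T2 had 5 with normexp, 3 with the slide as a random block, 5 with only the compared groups and 2 at 2-fold. The difference between the effects had 2 with 75th percentile scaling. That scaling moved the median of all features to -0.27 at T1, -0.16 at T4, 0.15 for T8 against T1, 0.12 for T2 against T1, 0.11 for T1_NPC against T1 and -0.11 for T2_NPC against T0. The causes were not tested.

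Leaving out 1 array at a time gave 0 to 1 for T2 against T1, 2 to 5 for T8 against T1, 1 to 3 for T1_NPC against T1, 3 to 7 for T2_NPC against T2, and 4 to 9 genes that fell by more than the neuron markers. The within-array differences ranged from -1.17 to -0.76 (Grin2a minus Grin2b) and -0.10 to 0.0017 (Gria2 minus the others). Of 524 values of named genes with 1 array left out, 483 kept direction and call, 41 lost the call and 0 turned. Replicate numbers did not pair the arrays: of 84 pairs of arrays with the same number, 19 correlated above 0.1 (range -0.34 to 0.30). With the replicate number as a block, 36 genes were lower at T1 and the call of Gabrq in T2_NPC against T2 ended. Genes not well above background have no measured order.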
